A study of Mus musculus with 6 samples.

Results

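The comparison described here is the Osr2 mutant against the control in mouse palatal mesenchyme at embryonic day 12.5 (E12.5). It rests on 1 mutant library, titled Osr2RFP/-, and 1 control library, titled Osr2RFP/+, which are 2 of the 6 RNA-seq libraries of the series. The other 4 libraries are 2 mutants and 2 controls of the same genotypes at E13.5. Palatal shelves were dissected from embryos of a mixed background and dissociated, and the cells that carry red fluorescent protein (RFP) from the Osr2 locus were sorted, so controls and mutants both carry the RFP allele. The labels name no treatment, and do not say which part of Osr2 each allele lacks or whether a library is 1 embryo or a pool. The titles also carry a number that the labels do not explain, 2962 for the E12.5 pair, 3047 for E13.5 mutant 1 and 3048 for the other E13.5 libraries. Each title ends in a further unexplained number, which differs between libraries that share the number just given, the E13.5 controls included. The E13.5 mutants differ in sex-linked RNA and so are not repeats of 1 sample. The end numbers set the E13.5 controls apart, but the labels do not say whether these are separate embryos. The spread of the E13.5 controls may therefore be biological or technical.

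With 1 library in each group, no difference at E12.5 has a replicate check, and none is given a p-value. A gene's level is its FPKM (fragments for each kilobase of a transcript, relative to sequencing depth), a measure that accounts for transcript length. A difference is log2(FPKM + 1) in the mutant minus the control, minus the median of that value over the genes counted. On this scale a difference of 1 is a change of 2 times in FPKM + 1, which understates the change of low genes. Where a gene is said to rise or fall at E13.5, the mutants are set against the controls of that age. Of 23418 gene symbols, 6100 had at least 5 FPKM in the higher library of the pair and were counted.

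Osr2 encodes a zinc finger transcription factor of the odd-skipped family, and mice that lack it have a cleft palate. The palatal shelves are outgrowths of the upper jaw, filled with mesenchyme derived largely from the neural crest, that grow beside the tongue before they lift and fuse to form the roof of the mouth. Bone later forms in the front part of this mesenchyme, under the control of factors such as Runx2, which bone-forming cells require.

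At E12.5 the differences were few. Among the 5939 counted genes of clear assignment, 15 were higher in the mutant by at least 1, or 0.253%, and 12 were lower by at least 1, or 0.202%. Clear assignment was judged from transcript length and locus only, without a search for copies of a gene elsewhere. The genes higher in the mutant included Dlx5 and Runx2, transcription factors of bone formation, Sox6, a transcription factor of cartilage, Sema3a, a secreted guidance cue, the growth factor gene Bmp7 and Penk, the precursor of enkephalin peptides. Those lower in the mutant included Lum, which encodes the matrix proteoglycan lumican, and Osr1, the paralogue of Osr2. At E13.5, in libraries that were not used to find them, all 15 higher genes were above 0 with both mutants above both controls, against 18.9% of clearly assigned genes. For the 12 lower genes, 7 had both mutants below both controls, against 17.0%.

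Osr2 itself, the gene targeted, lies on chromosome 15 from 35296112 to 35303305 (mm10). It was at 163 FPKM in the E12.5 mutant and 215 FPKM in the E12.5 control, a difference of -0.63. The E13.5 mutants held 68.5 and 88.4 FPKM and the E13.5 controls 138 and 152 FPKM. The mutants were thus below the controls at both ages, but reads on the gene were plentiful in every library, and the E13.5 difference of -0.94 ± 0.15 (SE) did not pass limma's test (adjusted p = 0.076). Since the deposited values are summed over the gene and the alleles are not described further, this level checks the labels only in its direction. Of the 32 counted genes within 10 Mb of Osr2, where the alleles' strain of origin could differ between libraries, none was past 1, 1 was past 0.5 and the median difference was 0.09.

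Promoters of 3 genes that were higher in the mutant at both ages are shown first, to put sequence beside the members that differ together. They are RefSeq promoters of the GRCm38.p6 build, from 250 bases before to 50 bases after a listed start, written 5′ to 3′ on the gene's strand. Capitals mark every match to TGTGGT (a RUNX core) or ACAAAG (a SOX core) on either strand. Runx2 is at chr17:44814578-44814877, minus strand. Sox6 is at chr7:116038695-116038994, minus strand, the first of 6 listed starts. Sema3a is at chr5:13396534-13396833, plus strand. This is the start of its 6582-base transcript, at 1.73 FPKM in the E12.5 mutant and 0.146 FPKM in the control. The main Sema3a transcript, of 6850 bases, starts at 13399309, outside this window.
Runx2: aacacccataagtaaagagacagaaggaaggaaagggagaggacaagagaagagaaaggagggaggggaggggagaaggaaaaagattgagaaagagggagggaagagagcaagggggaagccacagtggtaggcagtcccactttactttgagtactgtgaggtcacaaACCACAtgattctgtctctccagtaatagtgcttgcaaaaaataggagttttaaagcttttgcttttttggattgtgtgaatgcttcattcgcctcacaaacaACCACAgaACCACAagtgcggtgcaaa
Sox6: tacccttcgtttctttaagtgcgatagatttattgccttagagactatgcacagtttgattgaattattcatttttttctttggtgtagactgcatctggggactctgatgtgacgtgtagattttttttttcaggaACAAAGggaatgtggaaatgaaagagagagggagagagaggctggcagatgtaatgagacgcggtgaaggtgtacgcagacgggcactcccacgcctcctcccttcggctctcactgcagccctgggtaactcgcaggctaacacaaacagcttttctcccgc
Sema3a: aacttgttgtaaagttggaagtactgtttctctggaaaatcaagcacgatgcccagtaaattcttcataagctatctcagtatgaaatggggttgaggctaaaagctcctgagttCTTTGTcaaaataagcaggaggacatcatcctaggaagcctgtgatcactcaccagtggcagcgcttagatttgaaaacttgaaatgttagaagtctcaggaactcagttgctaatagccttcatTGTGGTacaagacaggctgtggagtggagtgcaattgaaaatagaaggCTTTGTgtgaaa
The Runx2 promoter held 3 RUNX cores and no SOX core, at positions -80, 24 and 32 from the start. In Sox6 there was 1 SOX core, at -113, and in Sema3a there were 1 RUNX core at -10 and 2 SOX cores at -135 and 39.

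Of the 26 named clear genes past 1 and Osr2, 27 in all, 13 matched a promoter in the reference table, 9 of them higher and 4 lower in the mutant. The motifs were chosen after the differences were known. The RUNX core was in 3 of 9 and 1 of 4 promoters, against 16.9% of 27025 promoters of this length, and the SOX core was in 3 of 9 and 2 of 4, against 18.7%. The windows of Foxp1, which held SOX cores, and of Erg lie outside the loci of the transcripts measured for these genes. ACAGTAGC, a motif of the odd-skipped family, was in 0 of 9 and 0 of 4, against 0.907%, and GACCACCCA, a GLI motif, was in 0 of 9 and 0 of 4, against 0.244%. Each was searched on both strands, and no searched motif contains another. A match is a description of the letters only, and a window without one says nothing of the factor.

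**Figure D1:**
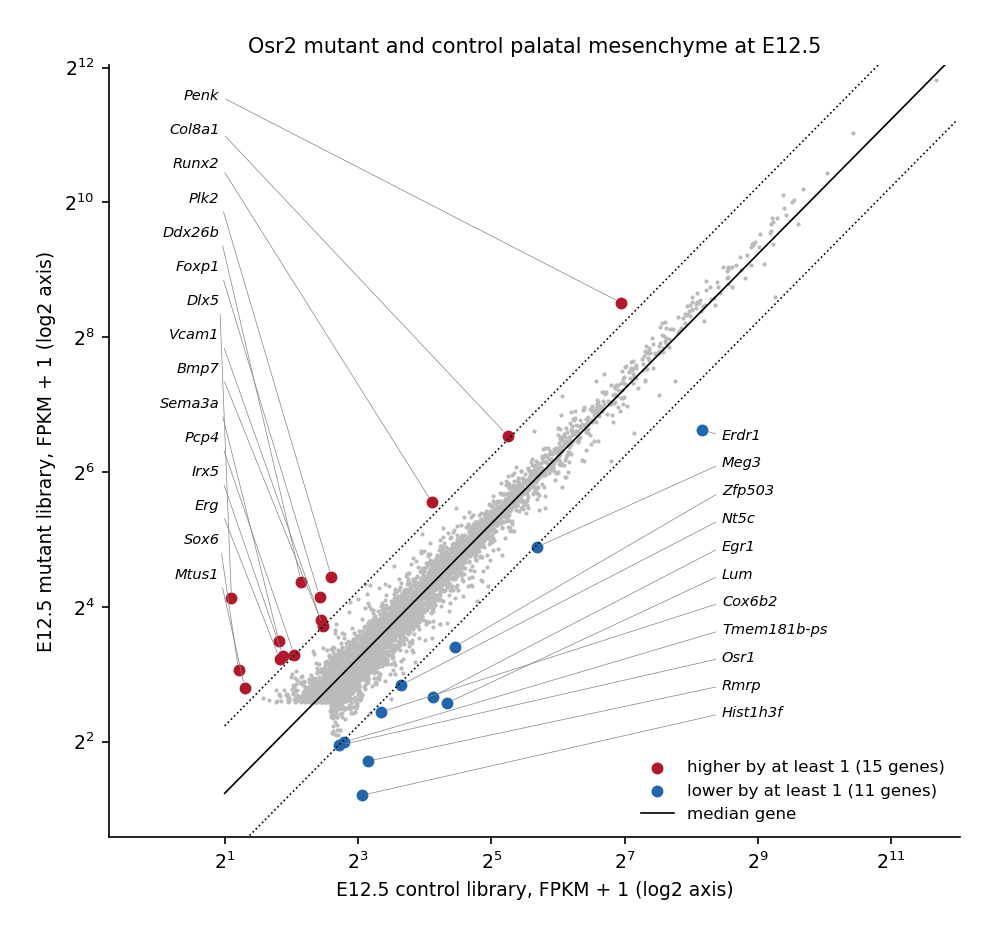
Each point is 1 of the 5939 clearly assigned genes, with FPKM + 1 in the E12.5 control on the horizontal axis and in the E12.5 mutant on the vertical axis, both on log2 axes. The solid line is the median gene and the dotted lines lie 1 log2 unit above and below it. The 15 red genes are higher and the 11 blue nameable genes lower in the mutant by at least 1, and most other genes lie close to the line.

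Genes of bone formation were the first group. Of 26 listed genes, 10 were counted, of which 2 were higher by at least 1, 4 were higher by at least 0.5 and none was lower by 0.5, with a median of 0.23. Over all counted genes, higher genes made up 0.459% past 1 and 1.98% past 0.5, and lower genes 0.475% and 2.62%. Dlx5, a homeobox gene that lies upstream in bone formation, was at 16.5 FPKM in the E12.5 mutant and 1.15 FPKM in the control, a difference of 2.79. The E13.5 mutants held 28.1 and 28.2 FPKM of Dlx5 and the controls 6.24 and 17.4 FPKM. Dlx5 was thus lowest in the E12.5 control, and the E13.5 controls differed from each other by more than the mean E13.5 difference of 1.29 ± 0.41 (SE, limma adjusted p = 0.37).

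Runx2, which directs cells to the bone lineage, lies on chromosome 17 from 44495987 to 44814797. It was at 45.8 FPKM in the E12.5 mutant and 16.3 FPKM in the control, a difference of 1.20. At E13.5 the mutants held 68.0 and 82.0 FPKM and the controls 27.2 and 22.8 FPKM. The groups did not overlap, and Runx2 rose by 1.496 ± 0.12 (SE, limma adjusted p = 0.015). Alpl, the alkaline phosphatase of mineralising tissue, was at 5.78 against 2.40 FPKM at E12.5, a difference of 0.76. By E13.5 Alpl reached 24.9 and 21.0 FPKM in the mutants against 6.62 and 5.26 FPKM in the controls. The E13.5 difference of Alpl between mutants and controls, 1.74 ± 0.14, passed the test (limma adjusted p = 0.015), and the groups stood apart.

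Twist1, a mesenchymal factor that restrains Runx2, was at 162 against 94.1 FPKM at E12.5, a difference of 0.55. Genes that mark later bone cells were low in the pair and were not counted. Sp7, the factor downstream of Runx2, was at 0.693 FPKM in the mutant and 0.704 FPKM in the control, and at 7.02 and 5.03 FPKM in the E13.5 mutants against 1.23 and 1.48 FPKM in the controls. Ibsp, a bone matrix protein gene, was listed at 0 in both E12.5 libraries. Both E13.5 mutants were thus above the controls for Sp7, which showed little difference in the E12.5 pair. Other listed genes under 5 FPKM went both ways at E12.5. Ifitm5 was at 1.32 against 2.75 FPKM and Bglap at 0.102 against 0.638 FPKM, while Bmp3 was at 2.50 against 1.66 FPKM. Mef2c, a transcription factor also under 5 FPKM in the pair, was at 2.97 against 1.04 FPKM at E12.5 and at 7.96 and 9.57 against 2.61 and 1.86 FPKM at E13.5. At E13.5 limma called 2 of the 10 counted genes higher, Runx2 and Alpl, and none lower, against 0.398% higher and 0.241% lower of 10799 genes tested.

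Among genes of cartilage formation, the members past 0.5 were likewise all higher in the mutant. Of 21 listed genes 7 were counted, with 1 higher by at least 1, 3 higher by at least 0.5, none lower by 0.5 and a median of 0.46. Sox6, which acts with Sox5 and Sox9 in cartilage cells, was at 7.32 FPKM in the E12.5 mutant and 1.31 FPKM in the control, a difference of 1.61. At E13.5 Sox6 was at 9.42 and 12.2 FPKM in the mutants against 2.40 and 2.08 FPKM in the controls. Mutants and controls stood well apart at both ages, and Sox6 rose at E13.5 by 1.81 ± 0.13 (SE, limma adjusted p = 0.014). Sox9, the leading cartilage factor, was at 34.98 against 18.3 FPKM at E12.5, a difference of 0.67. Its E13.5 mutants, at 19.9 and 28.9 FPKM, overlapped the controls at 22.1 and 17.4 FPKM. Sox5 was at 9.23 against 4.81 FPKM at E12.5, a difference of 0.58, and its E13.5 difference of 0.49 did not pass the test (limma adjusted p = 0.45).

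Semaphorins are guidance proteins that act through plexin and neuropilin receptors on axons, vessels and migrating cells. Of 30 listed genes of this group 12 were counted, with 4 higher by at least 0.5, none lower by 0.5 and a median of 0.02. Over all counted genes, 1.98% were higher and 2.62% lower by at least 0.5. Sema3a, on chromosome 5 from 13396784 to 13603485, was at 10.3 FPKM in the E12.5 mutant and 2.51 FPKM in the control, a difference of 1.45. In the E13.5 mutants it was at 15.1 and 16.3 FPKM and in the controls at 5.139 and 5.402 FPKM. The replicates lay close together, and Sema3a rose by 1.36 ± 0.10 (SE, limma adjusted p = 0.014).

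Nrp2, a neuropilin receptor, was at 19.1 against 8.09 FPKM at E12.5, a difference of 0.91, and at 29.0 and 33.3 against 16.7 and 12.6 FPKM at E13.5. Sema3d, a secreted semaphorin, was at 7.05 against 3.01 FPKM at E12.5, a difference of 0.77, and at 7.54 and 10.6 against 3.43 and 2.50 FPKM at E13.5. Sema6a, a membrane-bound semaphorin, was at 27.5 against 14.5 FPKM at E12.5, a difference of 0.65. Every E13.5 mutant was above both controls for these genes, as for 18.9% of clear genes. Members under 5 FPKM in the pair went both ways. Nrp1, the other neuropilin, was at 2.86 against 4.96 FPKM at E12.5. At E13.5 Nrp1 was at 4.34 and 4.85 FPKM in the mutants against 7.90 and 8.42 FPKM in the controls. Sema3e was at 2.07 against 0.496 FPKM at E12.5, and at 2.41 and 2.93 against 1.45 and 1.22 FPKM at E13.5. At E13.5 limma called Sema3a, Sema3d and Nrp2 higher, 3 of the 12, and none lower, against 0.398% higher and 0.241% lower of all genes tested. The call of Nrp2 (adjusted p = 0.047) was lost without mutant 1, mutant 2 or control 2, with adjusted p up to 0.16, and that of Sema3d (adjusted p = 0.038) was lost without mutant 2, at 0.092.

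In the BMP pathway, a growth factor pathway of jaw and bone development, 14 of 35 listed genes were counted and 1 was past 0.5 in either direction, with a median of 0.01. That gene was Bmp7, a secreted ligand, at 12.1 FPKM in the E12.5 mutant and 4.56 FPKM in the control, a difference of 1.01. Bmp7 was at 12.8 and 11.8 FPKM in the E13.5 mutants and 6.25 and 5.39 FPKM in the controls. Its mutant level was nearly the same at both ages, and the E13.5 difference of 0.92 ± 0.11 (limma adjusted p = 0.037) was no longer called when any 1 E13.5 library was left out, with adjusted p from 0.054 to 0.11. Bmp4, another ligand, was at 63.6 against 42.5 FPKM at E12.5, a difference of 0.34.

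Of 59 listed genes of the Wnt pathway, 28 were counted, with none past 1, 5 higher and 1 lower by at least 0.5 and a median of 0.13. Rspo3, which strengthens Wnt signals, was at 43.3 against 21.1 FPKM at E12.5, a difference of 0.77. Frzb, a secreted Wnt antagonist, was at 96.7 against 48.7 FPKM, a difference of 0.74. Rspo1, the relative of Rspo3, was at 6.48 against 9.63 FPKM, a difference of -0.74. The related Rspo1 and Rspo3 thus differed in opposite directions. Lef1, a transcription factor of the pathway, was at 14.8 against 7.58 FPKM, a difference of 0.64. Dkk3, a member of the Dickkopf family, was at 13.1 against 7.32 FPKM, and Lgr5, a receptor for R-spondins, was at 21.3 against 12.3 FPKM, each a difference of 0.52. Lgr5 was the 1 member of 28 called at E13.5, against 0.398% of all genes tested called higher. It rose there by 0.94 ± 0.11 (limma adjusted p = 0.037). This call was lost without mutant 2, control 1 or control 2, with adjusted p up to 0.11.

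FGF signals keep the shelf mesenchyme dividing, and retinoic acid patterns the face. In the FGF list 15 of 24 genes were counted and the median was 0.03. Etv1, an ETS factor induced by FGF signals, was at 19.2 against 7.64 FPKM at E12.5, a difference of 0.99, just short of 1. Fgf10, a mesenchymal ligand, was at 5.22 against 6.49 FPKM, a difference of -0.50. At E13.5 Fgf10 was at 1.52 and 1.69 FPKM in the mutants against 3.52 and 3.61 FPKM in the controls. It fell there by 0.86 on the log2 scale (limma adjusted p = 0.037), a call lost when any 1 E13.5 library was left out, with adjusted p from 0.055 to 0.10. Aldh1a2, which makes retinoic acid, was at 26.9 against 14.5 FPKM at E12.5, a difference of 0.62. Stra6, the retinol uptake receptor, was at 5.22 against 7.02 FPKM, a difference of -0.60. These were the members of the retinoic acid list past 0.5, of 9 counted among 19, with a median of -0.07. Stra6 was the 1 member of the 9 called at E13.5, against 0.241% of all genes tested called lower. Its difference there was -0.80 ± 0.10 (SE, limma adjusted p = 0.037). That call was not kept when any 1 E13.5 library was left out.

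No counted member of the Hedgehog (14 of 18 listed genes), Notch (6 of 22), TGF-beta (14 of 23) or insulin-like growth factor (10 of 21) lists was past 0.5 at E12.5. Gli1, a transcriptional target of Hedgehog signals, came nearest, at 20.7 against 25.1 FPKM, a difference of -0.496. The Hedgehog receptor gene Ptch1 was at 84.5 against 89.2 FPKM, a difference of -0.31, and Foxl1, another Hedgehog target, was at 4.59 against 5.21 FPKM, a difference of -0.38. The median of the Hedgehog list was -0.07, and no counted member of these 4 lists was called at E13.5. Hes1, a Notch target, differed by -0.42, Ltbp4, which binds latent TGF-beta, by 0.35, and Igf2bp3, an RNA-binding protein, by -0.28. Igf1 was under 5 FPKM at E12.5, at 0.802 in the mutant against 2.87 in the control, and was not counted. At E13.5 Igf1, a growth factor, was at 5.13 and 3.78 FPKM in the mutants against 15.1 and 19.7 FPKM in the controls. It fell there by 1.81 on the log2 scale (limma adjusted p = 0.029), a call lost without mutant 2 (0.063).

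The cell cycle lists held 31 counted S phase genes, 33 of G2 and M phase and 9 cyclin and inhibitor genes, and none was past 0.5. Their medians were 0.05, -0.01 and 0.07. Pcna, the sliding clamp of DNA replication, was at 108 against 74.9 FPKM, a difference of 0.29, and Cks2, a mitotic kinase subunit, differed by 0.36. The 18 counted genes of cholesterol synthesis and the 8 contractile genes also had no member past 0.5, with medians of -0.06 and -0.05. At E13.5 none of the counted members of these 5 lists was called. Of 16 counted glycolysis genes 1 was past 0.5, Eno1, a glycolytic enzyme at 10.6 against 5.92 FPKM. Eno1 was also the 1 of the 16 called at E13.5, against 0.398% of all genes tested called higher. Its difference there was 0.79 ± 0.10 (SE, limma adjusted p = 0.037). Its call was not kept when any 1 E13.5 library was left out.

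**Figure D2:**
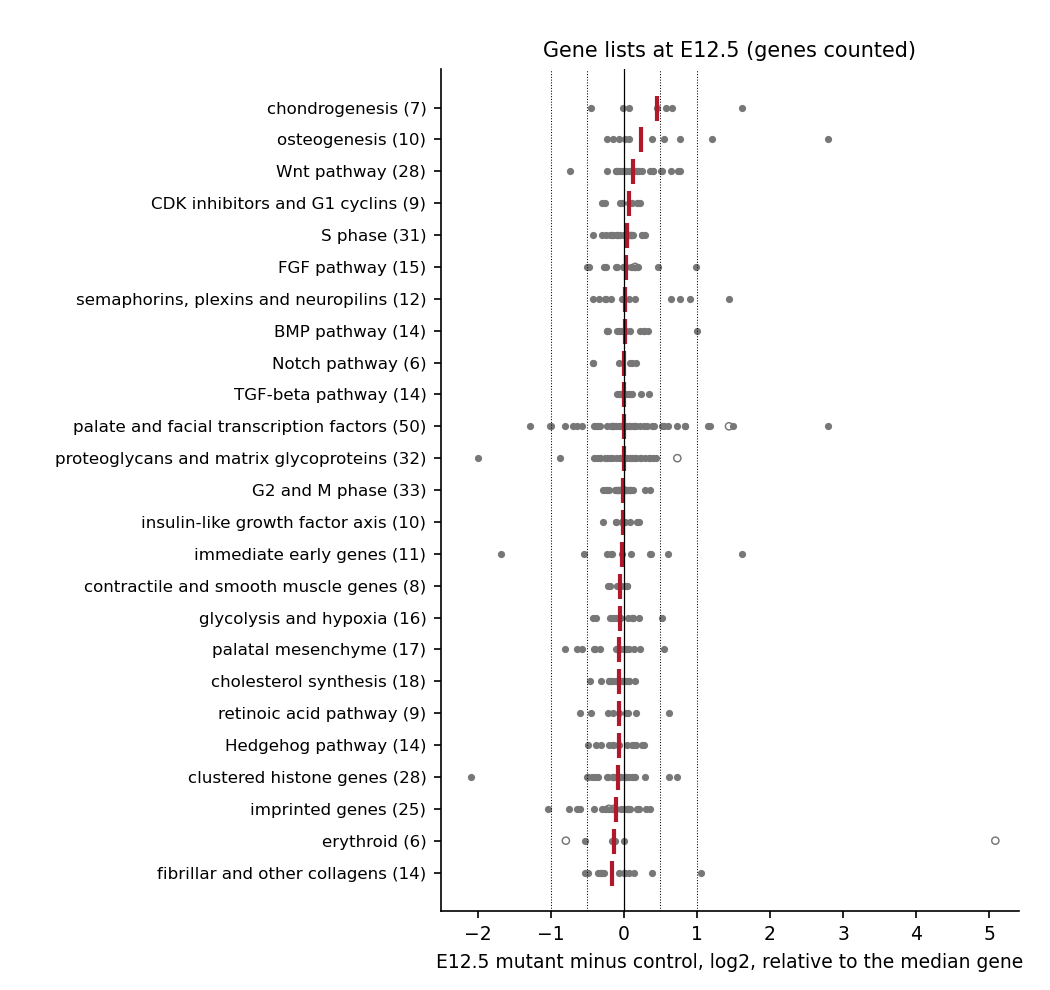
Each point is 1 counted gene of a list with at least 5 counted genes, placed by its E12.5 difference in log2 units relative to the median gene. The red bar is the list's median and open points are genes of uncertain assignment, such as Hba-a1 at 5.08. Chondrogenesis, at 0.46, and osteogenesis, at 0.23, have the highest medians of the lists drawn, and the cell cycle lists lie within 0.5 of 0.

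Transcription factors of the palate and face made up the longest list, and 50 of its 73 genes were counted. The list had 5 members higher and 2 lower by at least 1, 11 higher and 7 lower by at least 0.5, and a median of 0.00. Apart from Dlx5, the higher members were Foxp1, Mecom, Erg and Irx5, and the lower members were Zfp503 and Osr1. Foxp1, a forkhead factor, was at 16.8 FPKM in the E12.5 mutant and 4.36 FPKM in the control, a difference of 1.49. At E13.5 Foxp1 was at 10.2 and 13.5 FPKM in the mutants against 4.84 and 4.49 FPKM in the controls. Its control level was low at both ages, and it rose at E13.5 by 1.12 ± 0.13 (limma adjusted p = 0.036), a call lost without mutant 2 (0.054) or control 2 (0.050).

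Irx5, an Iroquois homeobox gene, was at 8.61 FPKM in the E12.5 mutant and 2.68 FPKM in the control, a difference of 1.15. At E13.5 it was at 11.4 and 15.1 FPKM in the mutants against 5.77 and 5.28 FPKM in the controls. It rose there by 1.07 ± 0.13 (limma adjusted p = 0.037), a call lost without mutant 2 (0.055) or control 2 (0.067). Both ages showed Irx5 above its control in each mutant library. Mecom, a zinc finger factor of uncertain assignment because its transcripts lie at separate loci, was at 33.1 against 9.69 FPKM at E12.5. The difference of Mecom was 1.44, and both of its listed loci were higher in the mutant, at 21.2 against 5.20 FPKM and at 11.9 against 4.49 FPKM.

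Erg, an ETS factor known from vessels and cartilage, was at 8.39 FPKM in the E12.5 mutant and 2.54 FPKM in the control, a difference of 1.17. At E13.5 it was at 3.79 and 5.81 FPKM in the mutants against 2.63 and 2.17 FPKM in the controls, a difference of 0.70 ± 0.16 that did not pass the test (limma adjusted p = 0.19). The endothelial genes Pecam1 and Cdh5 were near 0 in the pair, at 0.0564 and 0.0568 FPKM and at 0.0238 and 0.0932 FPKM in the mutant and the control. Of 14 endothelial markers 12 were under 1 FPKM in both libraries. The 2 counted members were Erg and 1 other gene, which reached 9.18 FPKM in the pair and differed by 0.20. The list summed to 18.5 FPKM in the mutant and 10.7 FPKM in the control, a sum that includes Erg itself.

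Zfp503, a zinc finger repressor, was at 9.62 FPKM in the E12.5 mutant and 20.9 FPKM in the control, a difference of -1.28. Its E13.5 values were 14.3 and 17.2 FPKM in the mutants against 22.6 and 20.3 FPKM in the controls. Osr1 was at 2.86 FPKM in the E12.5 mutant and 5.60 FPKM in the control, a difference of -1.01, and at E13.5 at 13.02 and 11.7 FPKM in the mutants against 21.2 and 32.8 FPKM in the controls. Mutants were below controls for both genes at both ages, but the E13.5 differences of -0.48 ± 0.11 and -1.08 ± 0.22 did not pass the test (limma adjusted p = 0.18 and 0.14). Ebf3, an early B-cell factor family gene, lay just short of -1, at 4.35 against 8.03 FPKM, a difference of -0.99. In the palatal mesenchyme marker list, all 18 genes were above 1 FPKM in at least 1 library of the pair. Its members past 0.5, beside Osr2 and Twist1, were Meox2 at 10.6 against 16.2 FPKM, a difference of -0.80, and Lhx8 at 43.3 against 54.9 FPKM, a difference of -0.57, both homeobox genes.

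Among matrix genes, the larger differences were in single members. Lum, on chromosome 10 from 97565501 to 97572703, was at 4.95 FPKM in the E12.5 mutant and 19.2 FPKM in the control, a difference of -1.996. The E13.5 values were 48.0 and 34.7 FPKM in the mutants against 61.7 and 51.5 FPKM in the controls. Every E13.5 library held more Lum than the E12.5 control, and the E13.5 difference of -0.51 ± 0.18 did not pass the test (limma adjusted p = 0.44). Postn, a matricellular protein of fibrous tissue, was at 70.5 against 111 FPKM at E12.5, a difference of -0.88, and its E13.5 difference was -0.04. Timp3, an inhibitor of matrix proteases counted as of uncertain assignment, was at 7.65 against 3.42 FPKM, a difference of 0.73. Of 56 listed proteoglycan and glycoprotein genes 32 were counted, with 1 higher and 2 lower by at least 0.5 and a median of 0.00.

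Among 14 counted collagens of 23 listed, the median was -0.17, and 1 was higher and 1 lower by at least 0.5. Col8a1, a short-chain collagen, was at 92.1 FPKM in the E12.5 mutant and 36.9 FPKM in the control, a difference of 1.06. Its E13.5 libraries held 112 and 136 FPKM in the mutants against 72.8 and 65.3 FPKM in the controls, and the difference of 0.78 ± 0.12 did not pass the test (limma adjusted p = 0.074, and 0.031 with the title number as a block). The groups did not overlap at E13.5. Col6a1, a microfibrillar collagen, was the lower member, at 10.1 against 12.6 FPKM at E12.5.

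Penk was the most abundant clear gene past 1 at E12.5, at 365 FPKM in the mutant and 122 FPKM in the control, a difference of 1.34. Penk at E13.5 was at 301 and 332 FPKM in the mutants against 145 and 133 FPKM in the controls. No mutant overlapped a control, and Penk rose at E13.5 by 1.13 ± 0.12 (limma adjusted p = 0.030), a call lost without control 1 (0.20) or control 2 (0.26). It was the 1 gene counted of 24 listed neuropeptide genes, 22 of which were under 1 FPKM in both libraries.

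Plk2, a polo-like kinase induced early after growth signals, was at 20.8 FPKM in the E12.5 mutant and 5.07 FPKM in the control, a difference of 1.61. At E13.5 it was at 28.9 and 31.2 FPKM in the mutants against 10.6 and 8.64 FPKM in the controls, and it rose by 1.504 ± 0.11 (limma adjusted p = 0.014). Egr1, an immediate early transcription factor of the same list, was lower, at 5.35 FPKM in the E12.5 mutant and 16.4 FPKM in the control, a difference of -1.69. The list thus held members past 1 in both directions. Its 11 counted genes had a median of -0.03, and Myc, a growth regulator, at 15.1 against 7.99 FPKM, and Zfp36, an RNA decay factor, at 4.32 against 5.62 FPKM, were also past 0.5. Egr1 at E13.5 was at 12.3 and 12.4 FPKM in the mutants against 16.7 and 12.8 FPKM in the controls, a difference of -0.28 ± 0.13 (limma adjusted p = 0.59).

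Of the other higher genes, Ddx26b, listed in RefSeq as Ints6l and related to a subunit of the Integrator complex, was at 19.7 against 3.43 FPKM at E12.5, a difference of 1.99. At E13.5 Ddx26b was at 6.70 and 6.94 FPKM in the mutants against 2.40 and 2.38 FPKM in the controls, and it rose by 1.15 ± 0.10 (limma adjusted p = 0.015). Its replicates nearly coincided. Pcp4, a calmodulin-binding protein, was at 8.77 against 3.12 FPKM at E12.5, a difference of 1.01. At E13.5 Pcp4 was at 73.7 and 47.0 FPKM in the mutants against 13.2 and 15.4 FPKM in the controls. Every E13.5 library was above the E12.5 pair. The E13.5 mutants exceeded the E13.5 controls in Pcp4 by 1.92 ± 0.23 (limma adjusted p = 0.037). Mtus1, a microtubule-associated protein, was at 5.92 against 1.47 FPKM at E12.5, a difference of 1.25, and Vcam1, a cell adhesion receptor, was at 12.9 against 4.44 FPKM, a difference of 1.12. Neither passed the test at E13.5, with differences of 0.94 ± 0.18 and 0.56 ± 0.11 (limma adjusted p = 0.12 for both).

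Several of the other lower genes are atypical transcripts. Hist1h3f, a histone gene of the replication-dependent kind that is largely not polyadenylated, was at 1.30 FPKM in the E12.5 mutant and 7.31 FPKM in the control, a difference of -2.09. Rmrp, the RNA of a processing ribonuclease, was at 2.28 FPKM in the mutant and 7.91 FPKM in the control, a difference of -1.68. The libraries were made from polyadenylated RNA, and whether carry-over of other RNA differs between them was not tested. At E13.5 Rmrp was at 8.11 and 10.4 FPKM in the mutants against 21.5 and 24.6 FPKM in the controls, and it fell by 1.29 on the log2 scale (limma adjusted p = 0.029), a call kept whichever E13.5 library was left out. Hist1h3f overlapped at E13.5, at 6.48 and 4.54 FPKM against 6.24 and 5.88 FPKM. Of 61 listed histone genes 28 were counted, with 2 higher and 2 lower by at least 0.5, Hist1h4a (0.73), Hist1h2bc (0.62), Hist1h3f and Hist1h3b (-0.51), and a median of -0.08.

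Erdr1, a gene of the region shared by both sex chromosomes, was at 97.5 FPKM in the E12.5 mutant and 286 FPKM in the control, a difference of -1.78, while its E13.5 difference was -0.11 ± 0.14 (limma adjusted p = 0.90). Meg3, a maternally expressed long noncoding RNA, was at 28.6 against 50.7 FPKM at E12.5, a difference of -1.04, and at 35.7 and 27.6 against 40.0 and 39.9 FPKM at E13.5. Of 25 counted imprinted genes, Meg3, Rtl1 (-0.75), Copg2 (-0.64) and Mest (-0.60) were lower by at least 0.5 and none was higher, with a median of -0.10. Meg3 and Rtl1 are neighbours in 1 imprinted cluster, as Mest and Copg2 are in another, so they are not independent members. Nt5c, a cytosolic nucleotidase, differed by -1.04, Cox6b2, a cytochrome oxidase subunit, by -1.14 and the pseudogene Tmem181b-ps by -1.03. None of these passed the test at E13.5 (limma adjusted p from 0.51 for Meg3 to 0.99 for Tmem181b-ps). The remaining lower gene, 1810011O10Rik, listed in RefSeq as Tcim and named after its values were seen, was at 5.22 FPKM in the E12.5 mutant and 10.2 FPKM in the control, a difference of -1.09. In the E13.5 libraries it was at 4.35 and 3.34 FPKM in the mutants and at 10.8 and 11.7 FPKM in the controls. The groups stood apart, and 1810011O10Rik fell by 1.39 on the log2 scale (limma adjusted p = 0.029), a call kept whichever E13.5 library was left out.

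**Figure D3:**
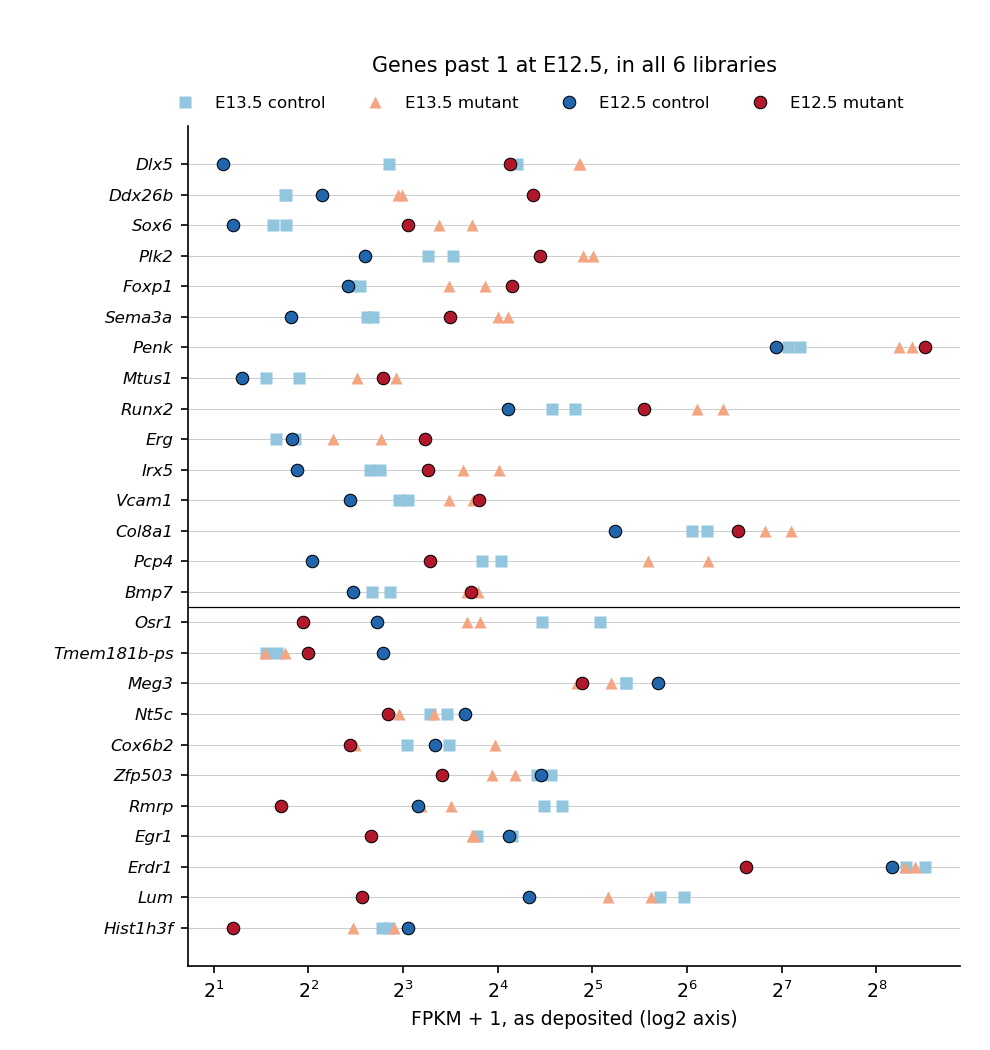
Each row is 1 of the 26 named clear genes past 1 at E12.5, with the higher genes above the line, and each point is its FPKM + 1 in 1 library on a log2 axis. Circles are the E12.5 pair, triangles the 2 E13.5 mutants and squares the 2 E13.5 controls. For Runx2, Sox6, Plk2 and Sema3a the mutants of both ages lie to the right of every control, while for Lum all E13.5 libraries lie to the right of the E12.5 pair.

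Where a gene past 1 has several listed transcripts, the difference could be followed in each. Most Runx2 signal lay in 1 transcript of 5707 bases, at 30.0 against 9.49 FPKM. The Dlx5 transcripts of 1410 and 1328 bases were at 15.6 against 1.14 FPKM and 0.874 against 0.000243 FPKM. The Foxp1 transcripts of 6632 and 7177 bases were at 9.41 against 1.98 FPKM and 6.65 against 2.16 FPKM. These transcripts were all higher in the mutant. The main Sema3a transcript, of 6850 bases, was at 8.53 against 2.06 FPKM, and that of Sox6, of 8551 bases, was at 3.92 against 0.884 FPKM. For Mtus1, the transcript of 4169 bases was at 2.90 against 0.0924 FPKM while that of 6550 bases was at 2.23 against 1.37 FPKM. The 3 Meg3 transcripts above 1 FPKM in the pair were all lower in the mutant, by differences of -0.89 to -1.06, and the 461-base Cox6b2 transcript was at 4.42 against 8.33 FPKM.

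The E13.5 libraries give the only measure of spread between replicates. Over the 5939 clear genes, the E13.5 controls were apart by at least 1 for 0.0842% and by at least 0.5 for 1.21%, and the E13.5 mutants for 0.135% and 4.63%. At E12.5 the clear genes higher and lower by at least 0.5 were 1.67% and 2.29%. A difference of 0.5 at E12.5 was therefore within the range of gaps between replicate mutants. Past 1 were 27 clear genes at E12.5 against 5 and 8 in the replicate gaps. The genes were counted by the higher library of the E12.5 pair, so a low gene can enter through the library where it is high. This can raise the E12.5 counts but not the replicate gaps, so nothing is read from the comparison past 1.

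At E13.5 limma called 10 of the 15 higher genes higher (Bmp7, Ddx26b, Foxp1, Irx5, Pcp4, Penk, Plk2, Runx2, Sema3a and Sox6), against 0.398% of all genes tested, and Rmrp and 1810011O10Rik among the lower genes, against 0.241%. Of the higher genes called, Ddx26b, Pcp4, Plk2, Runx2, Sema3a and Sox6 were called whichever E13.5 library was left out. With the title number as a block, which takes up E13.5 mutant 1, the call of Bmp7 was lost (0.054) and the others were kept. Of the clear genes between 0.5 and 1, 43 of 84 higher genes had both E13.5 mutants above both controls, against 18.9% of clear genes, and 61 of 124 lower genes had both below, against 17.0%. The E13.5 libraries differ from the E12.5 pair in sex-linked RNA. Xist, expressed from the inactive X chromosome, was at 129 and 141 FPKM in the E12.5 mutant and control and at 138 FPKM in E13.5 mutant 2, and was at most 0.0194 FPKM in the other 3, which held Y-linked Ddx3y. The part of sex in the E13.5 values was not tested.

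**Figure D4:**
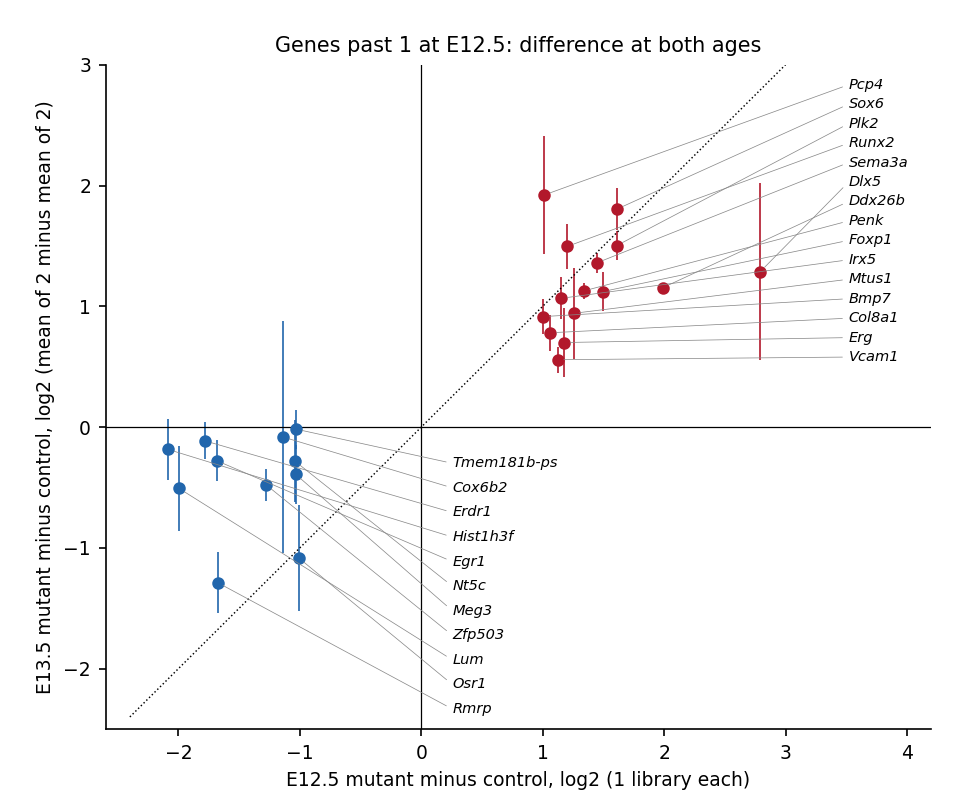
Each point is 1 of the 26 named clear genes past 1 at E12.5, with its E12.5 difference on the horizontal axis and its E13.5 difference on the vertical axis, both log2. Vertical lines run from the smallest to the largest difference between an E13.5 mutant and an E13.5 control, and the dotted line marks equal differences. All 15 red genes lie above 0 at E13.5 with lines clear of 0, while most blue genes lie nearer 0 than at E12.5.

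Whether a genotype difference at E12.5 differed in either direction from that at E13.5 was tested in the same fit. The lone E12.5 libraries were assumed to vary like the E13.5 ones. Of 10799 genes, 0.0185% passed, Hba-a1 and a small nucleolar RNA, both of uncertain assignment. None of the 26 clear named genes passed in limma (smallest adjusted p = 0.46). An unadjusted p was under 0.05 for 2 of the 15 higher and 7 of the 11 lower genes, and for 509 of 10799 genes in all. The E12.5 values that chose these genes are part of this contrast, so nothing is read from those counts.

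Past 1 in all were 28 higher and 29 lower genes, so 30 genes of uncertain assignment were past 1 beside the 27 clear ones. Of the 39 genes whose transcripts are all under 200 bases, 10 lay above 1 and 16 below -1, many of them at 0 in 1 library. These are mostly microRNA and small nucleolar RNA genes and were only counted. The alpha globin gene Hba-a1 was at 42.8 FPKM in the mutant and 0.0994 FPKM in the control, a difference of 5.08, but with its near-identical copy Hba-a2 the sum was 110 against 99.99 FPKM, a difference of -0.09. Atp6v0c, a proton pump subunit, was at 0.0141 against 6.76 FPKM, and with its copy Atp6v0c-ps2 the sum differed by -0.15. With no centring on the median gene, 29 clear genes lay above 1 and 6 below -1, in place of 15 and 12, as the median difference in the deposited values was 0.23.

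Erythroid genes summed to 746 FPKM in the mutant and 700 FPKM in the control, so erythroid RNA was present in both libraries of the sorted pair. The palatal mesenchyme list summed to 1396 FPKM in the mutant and 1274 FPKM in the control, and the marker lists of the other cell types were lower than the erythroid list. All list sums are of deposited values, which ran higher in the mutant by a median of 0.23. Relative to the median gene, the counted palatal mesenchyme members had a median of -0.06 and the erythroid members -0.14. None of 20 oral epithelium, 16 leukocyte or 18 skeletal muscle markers was counted, and their summed levels in the mutant and control were 5.17 and 4.52, 2.73 and 5.98, and 1.402 and 1.11 FPKM. In the neuron list Nefm, Nefl and Gap43 were counted, and the 15 genes summed to 47.2 and 36.4 FPKM. Of 10 glial and neural crest genes Ngfr alone was counted, and Sox10, a defining glial gene, was at 0.128 and 0.0545 FPKM. The estimated depth in units of 1000000 fragments, from the deposited coverage, was 18.0 and 17.1 for the pair and 14.1 to 16.7 for the E13.5 libraries, and 10261 to 10478 genes reached 1 FPKM in each of the 6.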

How the data were processed

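The data are RNA-seq of RFP-positive palatal mesenchyme cells. Per the labels' protocols, shelves were digested with trypsin-EDTA for 4 minutes at 37 °C, passed through a 40 µm strainer and sorted by flow cytometry, and libraries of polyadenylated RNA were amplified for 15 PCR cycles and sequenced from both ends, 75 bases each. A Nextera kit and a stranded TruSeq kit are both mentioned there. Bowtie 0.12.7, TopHat 1.4.1, mm9 and mm10 are listed, per the submitters' processing notes. Starts in the files fit mm10, with 97.2% of 17534 single-transcript genes inside their RefSeq locus.

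The deposited tables hold the authors' FPKM per RefSeq transcript, for 31579 transcripts, in the format of Cufflinks per the file headers. Low FPKM values are estimates and not whole multiples of a read, so no counts were recovered. The coverage (a signal value) in the deposited tables was used only to estimate depth, as coverage times length over the bases of a pair. FPKM was summed per symbol. Of 23443 symbols, 25 with a failed estimate in a library were left out. A gene is of uncertain assignment when its transcripts are all under 200 bases, lie at several separate loci, or share at least 80% of the locus with another symbol. Copies at other loci under another symbol were not looked for, so a gene counted as clear can still share reads with such a copy.

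For E13.5 and for the difference between ages, limma 3.58.1 in R 4.3.3 was fitted to log2(FPKM + 1) of all 6 libraries, 1 mean per group, with an intensity trend and two-sided Benjamini-Hochberg adjusted p under 0.05 over 10799 genes with at least 1 FPKM in at least 2 of 6 libraries. Each library was first shifted by its median difference to the E12.5 control. Separation of the E13.5 groups was computed on these shifted values. This was chosen after seeing unshifted values, which put both mutants above both controls for 25.8% and below for 10.4% of clear genes, and 15 of the 15 higher and 7 of the 12 lower genes apart. Tables used Python 3.11.15, pandas 2.3.3 and matplotlib 3.10.9.

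The members and lists were chosen with earlier results of these data known. Of 871 listed genes in 33 lists, 866 were found and 418 counted. Genes are named if past 1 (symbols of the Gm, Rik, microRNA and small nucleolar RNA forms were counted only), if among the members of a list past 0.5 up to 8 by size, if nearest 0.5 in a list with none past it, or if the difference between ages passed. 1810011O10Rik, genes under 5 FPKM, Bmp4 and the marker genes named for identity were named after their values were seen.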

Additional observations from a re-analysis of the deposited data

Results flagged for a closer look

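The mutant minus control difference of Hba-a1, a gene of uncertain assignment, was 5.08 at E12.5 and -5.07 at E13.5, or 10.16 log2 units apart. Hba-a1 was flagged because it passed the limma test of the difference between ages. That contrast holds the E12.5 values by which Hba-a1 was named, with 1 library per group, so nothing is read from the pass. Hba-a1 was at 42.8 FPKM in the E12.5 mutant and 0.0994 FPKM in the control, and at 0.279 and 0.132 FPKM in the E13.5 mutants and 47.6 and 30.5 FPKM in the controls. Summed with its copy Hba-a2, the levels were 110 and 99.99 FPKM at E12.5, and 38.8 and 23.9 against 48.1 and 32.2 FPKM at E13.5, where the groups overlapped.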

How the results depend on the processing

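At E12.5, 28 genes higher and 29 lower became 18 higher with a pseudocount of 5, 44 and 52 with a floor of 1 FPKM, 16 lower with a floor of 10 FPKM, 18 lower with a mean of the pair of at least 5 FPKM, and 15 and 12 without genes of uncertain assignment. Combining that last choice with the others was added after seeing the data, and the 15 and 12 became 29 and 6 with no centring, 7 and 5 with a pseudocount of 5, 9 and 7 with a floor of 10 FPKM and 29 and 26 with a floor of 1 FPKM. With no centring the median near Osr2 was 0.32. Of 25 lists 11 had a median above 0, which became 25 with no centring and 4 with equal FPKM sums. Of the 26 named clear genes 13 stayed at least 1 in size under every other setting that counted them, Bmp7, Osr1 and Tmem181b-ps were under 1 in 4 settings each, and none reversed. At E13.5 the limma calls, 43 higher and 26 lower, became 297 and 465 with no filter on low values, 20 and 9 with a mean of at least 5 FPKM, 92 and 47 with no centring, and ranged from 23 to 42 and from 9 to 37 when 1 library was left out, both lowest without mutant 2. The 2 genes that differed between ages became 313, 1 and 4 under those settings, 5 to 13 with a library left out and 0 without genes of uncertain assignment (smallest limma adjusted p = 0.37, with 509 genes at an unadjusted p under 0.05). The cause of these changes was not tested, beyond the number of genes or samples each setting leaves. E13.5 differences near 0 reversed for Tmem181b-ps (0.034 with no centring, and -0.16 to 0.12 with a library left out), Cox6b2 (-0.85 to 0.69) and Hist1h3f (-0.43 to 0.065). With the unexplained title number as a block, an alternative added after seeing the data that takes up E13.5 mutant 1, the E13.5 calls were 46 and 37 and the genes that differed between ages 13, and among named genes Bmp7, Nrp2, Fgf10, Stra6, Eno1 and Atp6v0c lost their E13.5 call. No paired analysis was possible because no label pairs single mutant and control libraries at E13.5, and E12.5 has 1 library per group. The files give no counts, so the counting error of single values is not known.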
